A study of Xenopus tropicalis with 40 samples.

Results

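The genes gata4, gata6 and hhex encode transcription factors of the early endoderm. They were picked by symbol from the deposited gene models of Xenopus tropicalis, the western clawed frog, and all 3 were found among 8329 annotated genes with a model on their own strand. Together they hold 33 of 159469 transcripts: 10 at gata4, 18 at gata6 and 2 at hhex on the strand of the gene, and 2 antisense to gata6 and 1 antisense to hhex. Transcripts were assigned to them by symbol and strand class, without the use of any measured value.

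The RNA was polyadenylated and came from whole outbred embryos and tadpoles, from the 2-cell stage to stages 44 and 45. There are 40 libraries of 23 stages, 16 from clutch 1 and 24 from clutch 2. Second-strand marking with dUTP was used to keep the strand of the RNA, and how fully it did so was not measured here. The values used here describe 1 assembly pooled over every library, so no level per stage, clutch or library was analysed here, the depth is unknown and nothing below has a replicate or a test between samples. Differences between the genes are therefore described, not tested.

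Gata4 and Gata6 belong to the GATA family, whose members bind DNA through a pair of zinc fingers. In the vegetal cells of the frog embryo they act below maternal VegT and Nodal signals, next to Sox17 and the Mix-type homeodomain proteins, to commit cells to endoderm, and both are used again in heart and gut. Hhex carries a homeodomain and acts mainly as a repressor. It marks the anterior endoderm and is needed for the liver bud, and it is also made in blood and vessel precursors.

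At gata4 all 10 assembled transcripts were spliced and had a junction chain that the annotation did not hold. The share of new chains over all genes is not given here, so neither this count nor that of gata6 is placed among them. They lay on the minus strand of scaffold GL172699 from 2570192 to 2628653, counted from 1, on a build not given in the sources used here. The locus spanned 58462 bases. The transcripts were 2959 to 3860 bases long with a median of 3706, and 9 of them had 7 exons while transcript 8 had 6. Transcripts are named by the number the assembler gave them.

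**Figure D1:**
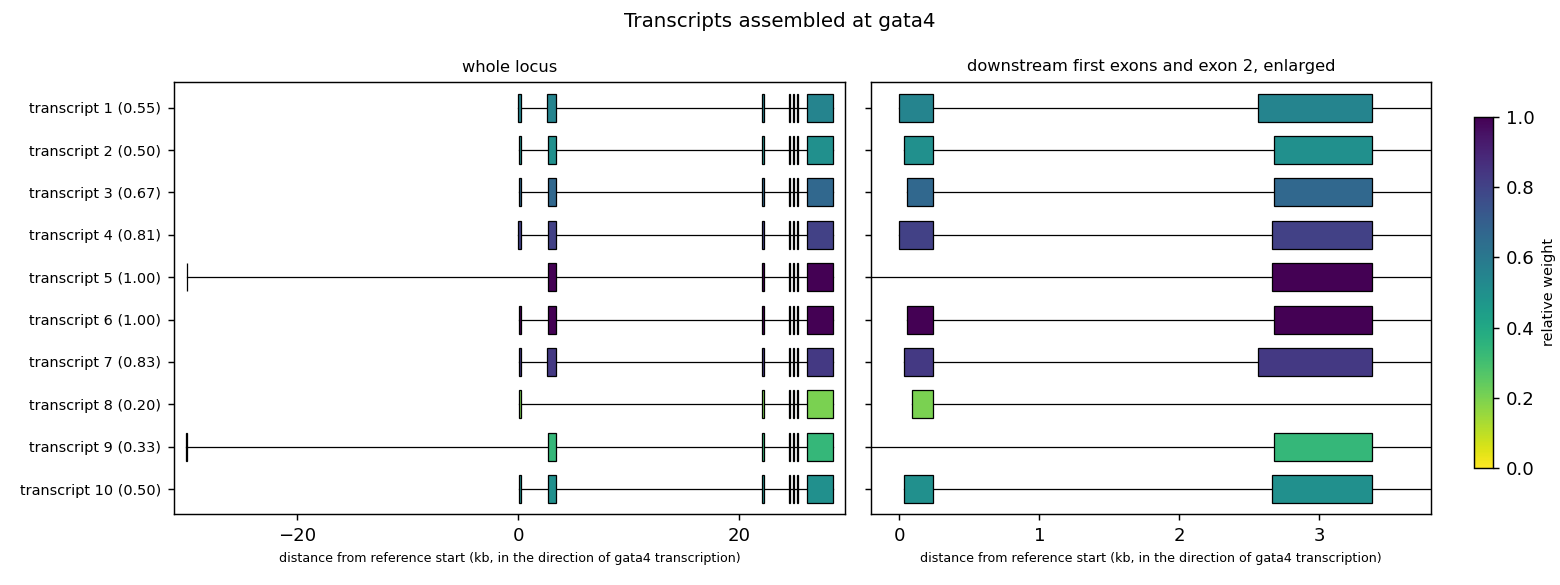
Exons (boxes) and introns (lines) of the 10 transcripts assembled at gata4, in kb from the most upstream start of the downstream first exon, to scale, with the relative weight of each transcript as colour and in brackets. Transcripts 5 and 9 start about 30 kb upstream of the others, and transcript 8 has no exon 2; the right panel enlarges the downstream first exons and exon 2.

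At gata4 there were 2 separate first exons. A group of 8 transcripts began in an exon that ended at 2598393, with 5 different starts and a length of 153 to 241 bases. Transcripts 5 and 9 began in an exon of 43 and 52 bases between 2628602 and 2628653, separated from the other by 29968 bases. At least 2 separate first exons were present in 70.5% of the 7410 genes with a spliced assembled transcript, so having both does not set gata4 apart. The first intron of the distant start was 32633 or 32644 bases long, and 97.8% of the 287549 distinct introns of the catalogue were shorter. That pool holds introns of every position, and first introns were not ranked on their own.

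Each transcript carries a deposited score between 0 and 1, headed FPKM in the file and called relative weight here. What it measures is not stated, and it is not read as an abundance here, since no transcript exceeds 1 and 58.9% equal exactly 1. The deposited coverage was this weight times 1 constant per locus, 2.03 at gata4, 1.53 at gata6 and 1.54 at hhex. Within a locus it therefore adds no further information. At gata4 the weights ran from 0.2 to 1 with a median of 0.608. The weight of 1 went to transcript 5, with the distant first exon, and to transcript 6, with the near one. Transcript 9, the other with the distant first exon, had a weight of 0.333.

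Exon 2 of gata4 had 3 forms and was left out once. It is a large exon, which in human and mouse holds the start of the protein. Its start was at 2595957 in 4 transcripts, at 2595968 in 3 and at 2596071 in 2, which gives lengths of 699, 710 and 813 bases. The outer acceptor sites lie 114 bases apart, a multiple of 3, whereas the middle one is 11 bases from one and 103 bases from the other. No reading frame was examined here, for these or any other exons, so an effect on the protein was not tested. Transcript 8, with the lowest weight of 0.2, joined the near first exon to exon 3 across an intron of 21849 bases and left exon 2 out.

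Exon 5 of gata4 varied by a few bases at both ends. It had 88 bases in 5 transcripts, 91 bases in 3 and 90 bases in 2. The 91-base form used a 5 prime splice site 3 bases further downstream, at 2573689 in place of 2573692, and its transcripts 2, 7 and 10 all began at the same base, 2598603. The 90-base form used a 3 prime splice site 2 bases further upstream and occurred in transcript 6, with the near first exon, and transcript 9, with the distant one. Pairs of 5 prime splice sites 3 bases apart occurred in 6.82% of the genes. Any alternative 5 prime splice site occurred in 49.2% and any alternative 3 prime splice site in 56.3% of them. With 3 additional 3 prime splice sites gata4 had more than 78.4% of all genes, and more than 89.9% of the 1650 genes whose largest exon number differed by at most 1.

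Apart from exon 5, gata4 had 1 form of each exon after exon 2. Exons 3, 4 and 6, of 167, 126 and 128 bases, were identical in all 10 transcripts, and so was the last exon of 2297 bases. All 10 ended at the same base, 2570192. Among the 2326 genes with 10 or more isoforms, 19.4% had a single exact 3 prime end.

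The gene gata6 was richer in isoforms, with 18 assembled transcripts, all with at least 2 exons. They lay on the plus strand of scaffold GL172720 from 2392453 to 2418363, a span of 25911 bases. Transcript 10 had exactly the annotated junction chain and the other 17 had new ones. The transcripts were 1005 to 4933 bases long with a median of 4146 and had 3 to 7 exons.

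**Figure D2:**
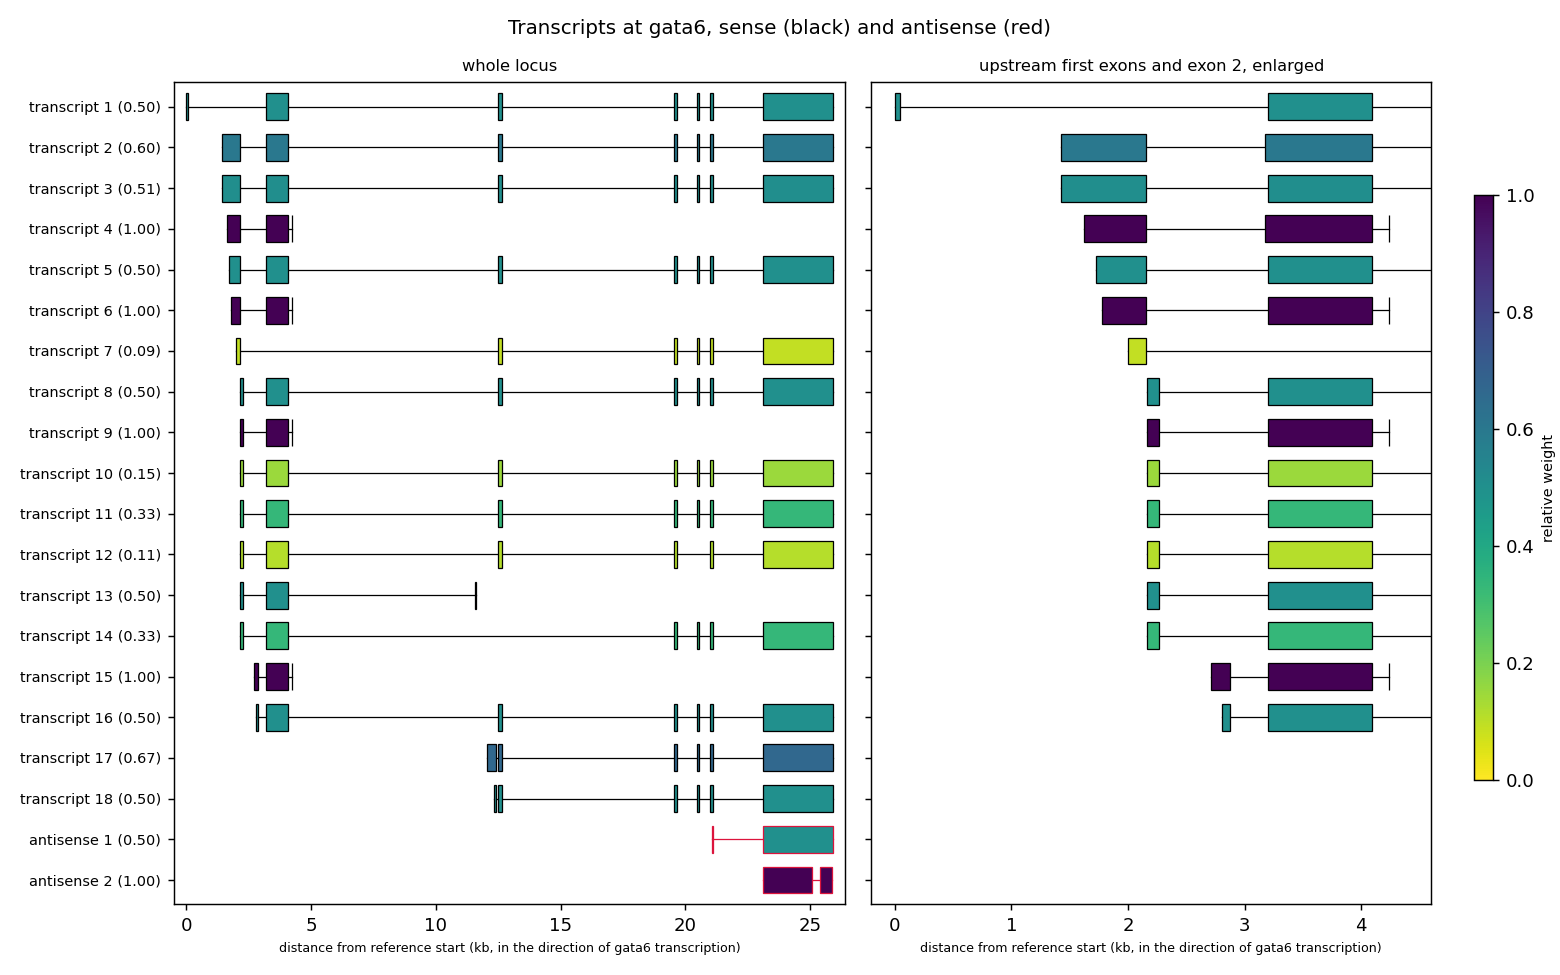
Exons (boxes) and introns (lines) of the 18 sense (black outlines) and 2 antisense (red outlines) transcripts at gata6, in kb from the most upstream start, to scale, with the relative weight as colour and in brackets. The right panel enlarges the 4 upstream first exons and exon 2; transcripts 17 and 18 start beyond it, just before exon 3, and transcripts 4, 6, 9 and 15 end shortly after exon 2.

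At gata6 there were 5 separate first exons, all of assembled transcripts. With annotated models and every locus of a symbol counted, 17% of the genes had at least 5. In order of transcription, the first lay from 2392453 to 2392501 and was used by transcript 1 alone. The second reached from 2393876 to 2394608, had up to 733 bases and was used by 6 transcripts with 5 different starts. The third, from 2394613 to 2394722, followed after a gap of only 4 bases and was used by 7 transcripts, among them transcript 10 with the annotated chain. The fourth lay from 2395164 to 2395325 and was used by transcripts 15 and 16. The 4 upstream first exons all joined exon 2 at 2395654 in at least 1 transcript.

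The fifth first exon lay 9193 bases further downstream, inside the intron that follows exon 2. Transcripts 17 and 18 began there, between 2404519 and 2404851, and were spliced over an intron of 102 bases to exon 3. They held every later exon of the gene but not exon 2. Exon 2, of 889 bases, contains the translation start of GATA6 in human and mouse. The weights of 17 and 18 were 0.667 and 0.5, against a median of 0.5 over the 18 transcripts. What the weight measures is not stated, so it is not read as evidence for this first exon. Whether a 5 prime end in the catalogue is the start of an RNA or the end of read support was not tested.

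Internal exons were left out of single gata6 transcripts, 4 exons in all with both forms of exon 2 counted. Exon 2 was absent from transcript 7, which had the lowest weight of 0.0909. Exon 3, of 167 bases, was absent from transcript 14 with a weight of 0.333, and exon 5, of 94 bases, from transcript 12 with a weight of 0.111. Each skip occurred in 1 transcript, whereas exon 3 and exon 5 were each included in 12. An exon that lies inside an intron of another transcript was present in 70.6% of the genes, with annotated models counted too. By the forms of its exon 2, gata4 had 3. The 3 of hhex all come from setting its 1 assembled transcript against the annotated model, and are described with its transcripts. Neither gata4 nor gata6 nor hhex had a retained intron, which 28.3% of the genes had.

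Like gata4, gata6 had variable 3 prime splice sites at exon 2. Its other variable sites were at exon 6, whereas those of gata4 were at exon 5. Exon 2 began at 2395654 in 13 transcripts and 29 bases earlier, at 2395625, in transcripts 2 and 4. Exon 6 had 107 bases in 9 transcripts and 111 bases in 3, by a 5 prime splice site 4 bases further downstream. Transcript 8 combined that site with a 3 prime splice site 7 bases further downstream, so its exon 6 had 104 bases, and the remainder after division by 3 was the same as for 107 bases. Pairs of 5 prime splice sites 4 bases apart occurred in 10.2% of the genes.

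Not every gata6 transcript reached the 3 prime end of the gene. Transcripts 4, 6, 9 and 15 ended in an exon of 8 bases, from 2396687 to 2396694, after an intron of 144 bases behind exon 2, and transcript 13 ended in an exon of 29 bases near 2404052. The other 13 ended at the same base, 2418363, in a last exon of 2788 bases. A last exon of at most 10 bases was found in 28.8% of the genes. The 4 transcripts that ended in the 8-base exon were also the 4 of gata6 with a weight of 1, and none of these holds exons 3 to 6. The 13 that reached the last base had weights of 0.0909 to 0.667, and the annotated chain of transcript 10 had 0.15.

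A comparison of the 2 GATA genes showed the same exon plan. In transcript order the internal exons after exon 2 had 167, 126, 88 and 128 bases in gata4 and 167, 126, 94 and 107 bases in gata6, taking the most frequent form of each. Exons 3 and 4 were equal in length, and the remainders after division by 3 were the same along the series, at 2, 0, 1 and 2. In mammals exons 3 and 4 encode the zinc fingers. An internal exon of 167 bases occurred at 630 loci and one of 126 bases at 1292 loci. Counted by locus and gene symbol, the 2 in succession occurred in 3 entries, where 15148 loci had at least 4 exons. Those 3 were gata4, gata6 and an entry without a gene symbol, which was not checked to be a separate locus.

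**Figure D3:**
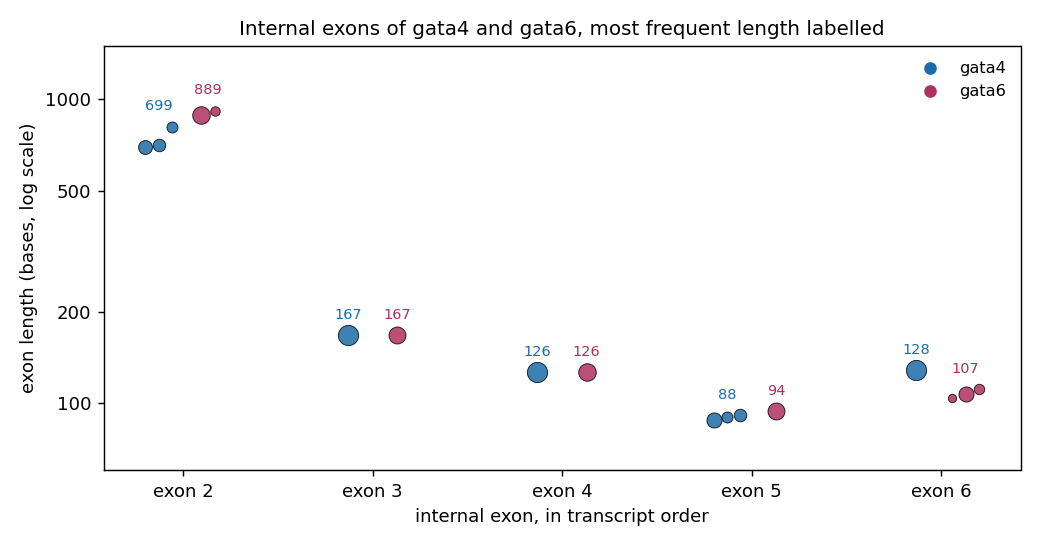
Length in bases (log axis) of each internal exon of gata4 and gata6 in transcript order; each point is 1 form of the exon, its area grows with the share of transcripts that hold it, and the most frequent length is printed. Exons 3 and 4 have 167 and 126 bases in both genes, while exons 2, 5 and 6 differ.

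The other GATA genes with a model had an internal exon of 126 bases but none of 167 bases. In gata5, which acts with gata4 and gata6 in endoderm and heart, exons of 126, 88 and 122 bases follow each other. Their remainders are 0, 1 and 2. Counted by locus and gene symbol, the pair of 126 and 88 bases occurred in 8 entries and that of 88 and 122 bases in 13. In gata5, 126 bases were also followed directly by 122 bases, a pair in 11 entries. Its 88-base exon was also followed by one of 89 bases, a pair in 28. The gata5 models at this locus place 126-base exons at 2 positions, from 7617 to 7742 and from 10695 to 10820 on scaffold GL175819. No transcript holds both, and 1 joins 65 bases of the first to 61 bases of the second. In gata3, a gene of ectoderm, blood and kidney, exons of 80, 143 and 146 bases can come directly before the 126-base exon. They were held by 8, 4 and 7 of 20 transcripts. Counted in the same way, these pairs of lengths occurred in 14, 13 and 12 entries.

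The hhex locus looked different. It held the annotated model of 4 exons, for which no matching transcript was assembled, and 1 assembled transcript of 5 exons. Coverage of the annotated model is listed at 0, as it is for all 3522 annotated models. The annotated model and the assembled transcript lay on the minus strand of scaffold GL173080, from 329759 to 349370 and to 349545. The annotated model had exons of 406, 179, 51 and 1448 bases and was 2084 bases long, and the assembled transcript was 2182 bases long with a weight of 0.667.

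**Figure D4:**
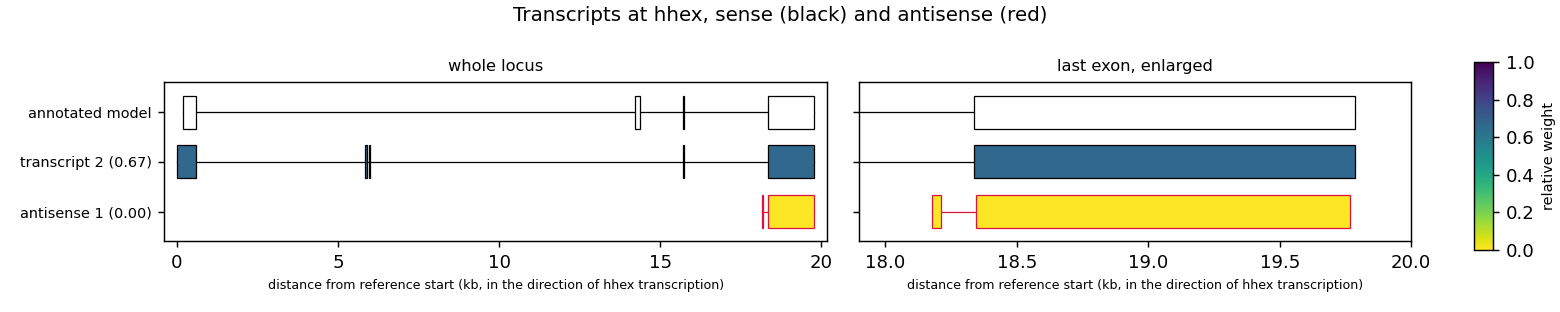
Exons (boxes) and introns (lines) of the annotated hhex model (white), the assembled transcript and the antisense transcript (red outline), in kb from the most upstream start, to scale, with the relative weight as colour and in brackets. The assembled transcript lacks the exon near 14 kb and has a pair of short exons near 6 kb instead, and the antisense transcript covers the last exon.

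The assembled hhex transcript lacked the second annotated exon. In its place it had an exon of 62 bases from 343659 to 343720 and one of 40 bases from 343542 to 343581, inside the first annotated intron of 13631 bases. In human, the homeodomain is encoded across exons 2 and 3. Over this stretch 179 bases were lost and 102 bases were gained. The assembled form was 77 bases shorter there, and this net change is not a multiple of 3. The reading frame of neither model was examined, so an effect on the homeodomain was not tested. The transcripts shared 1 intron, the last, and the exon of 51 bases and the last exon before and after it. The first exon ended at the same base in both and began 175 bases further upstream in the assembled one. A single assembled isoform, as at hhex, was found in 11% of the 7410 genes.

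Spliced antisense transcripts lay over the last exon of gata6 and of hhex, and none was found at gata4. An antisense transcript was present at 22.1% of the 8329 annotated genes, and at 59.4% of the 1837 such genes with antisense RNA it overlapped a last exon. At gata6, antisense transcript 2 ran from 2415576 to 2418325 in a pair of exons, lay wholly inside the last exon and covered 86.7% of it, with a weight of 1. Its boundary at 2415576 is the very base where the last sense exon begins. Antisense transcript 1 had a weight of 0.5 and covered the whole last exon, starting at the very base where the sense transcripts end.

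The intron of gata6 antisense transcript 1 almost mirrored an intron of the gene. It ran from 2413555 to 2415564, whereas the sense intron ran from 2413558 to 2415575, so the ends differed by 3 and 11 bases. Its far exon had 31 bases and lay in exon 6. Of 5329 spliced antisense transcripts in all, 463 (8.69%, Wilson 95% interval 7.96% to 9.47%) had an intron whose ends both lay within 20 bases of those of a sense intron. The cause of the near match was not tested.

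At hhex the antisense transcript ran on the plus strand from 329777 to 331368. Its large exon covered 98.3% of the last hhex exon, and its other exon of 37 bases, from 331332, lay in the preceding hhex intron. Its weight was listed as 2.32e-310 and its coverage as 3.56e-310, both close to 0. The antisense weights at gata6, 0.5 and 1, lay within the range of its sense transcripts, whereas that at hhex lay below its sense transcript's 0.667.

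Among all genes the members took different ranks. The median gene had 6 isoforms with at least 2 exons. With 10 isoforms gata4 had more than 68.6% of the genes, with 18 isoforms gata6 had more than 85.5%, and 89.0% of the genes had more than the 1 isoform of hhex. Among genes with about as many exons the medians were 5 for gata4 and gata6 and 3 for hhex, and gata4 then had more isoforms than 79.5% and gata6 more than 93.9% of them. RefSeq lists 4 transcripts of gata4, 2 of gata6 and 1 of hhex on its assembly UCB_Xtro_10.0. In both sources hhex has the fewest, while the order of gata4 and gata6 is reversed.

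**Figure D5:**
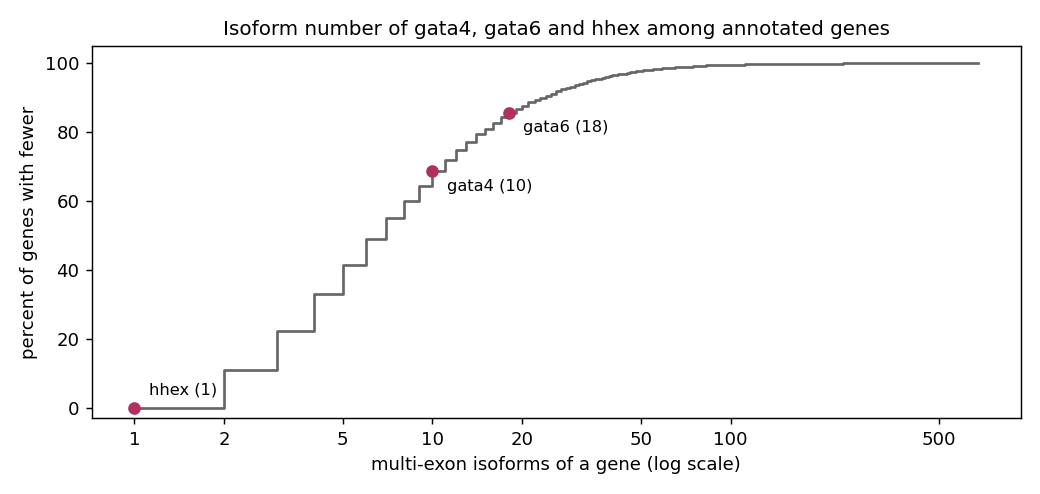
Percent of the 7410 genes with fewer isoforms (vertical axis) against the number of multi-exon isoforms of a gene (log axis); points mark the members. The hhex gene with 1 isoform sits at the bottom, gata4 with 10 at 68.6% and gata6 with 18 at 85.5%.

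The genes listed for endoderm specification, with gata4, gata5 and gata6 among them, had fewer isoforms than gata4 in the median. This list and the lists below were not matched to other genes by exon number. Of 37 names for endoderm specification, 22 had a model and 19 an assembled spliced transcript. Their median was 3 isoforms against 6 over all genes, and 6 lay above that. The Nodal pathway gene foxh1, whose protein binds DNA with Smad2, led with 19, then came gata6 with 18, smad2 with 14 and gata4 with 10. Antisense RNA was found at 5 of the 22 with a model, against 22.1% of all 8329 annotated genes. Among them foxh1 had 6 transcripts and gata6 had 2, while sox17a and foxa1, which encode endoderm transcription factors, had 1 each.

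Of 21 names for the anterior endoderm and liver bud, the group of hhex, 16 had a model and 14 an assembled spliced transcript, with a median of 4 isoforms. The co-repressor genes tle2, tle4 and tle1 led with 84, 41 and 23, and Tle proteins are known partners of Hhex. The Wnt antagonist gene frzb and the transcription factor genes onecut1 and sox2 followed with 5 each. Only those 3 tle genes lay above the median of all genes. Antisense transcripts were assembled at 3 of the 16 with a model, against 22.1% of all annotated genes. These were hhex, tle1 and tle4, with 1 each, and that at hhex had a weight of only 2.32e-310.

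Of 16 names for GATA cofactors and heart partners, 10 had a model and 9 an assembled spliced transcript, with a median of 6 isoforms. The heart and muscle factor genes mef2d, mef2a and mef2c had 26, 15 and 13, and tbx5, which binds with Gata4 in the heart, had 9. Of the 10 with a model, 2 had antisense RNA, against 22.1% of all annotated genes: mef2d, with 10 transcripts, and tbx1, with 1. Of 11 names for the blood and vessel lineage, 5 had a model, with a median of 3 isoforms: lmo2 and fli1 had 4 each, and tal1 and erg had 3 each. Of 6 GATA names, gata1 and gata2 had no own-strand model under these symbols. The genes gata3, gata4, gata5 and gata6 had a model and 20, 10, 4 and 18 isoforms, with antisense RNA at gata6 alone.

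No transcript of another gene overlapped any of the 3 genes on their scaffolds. The distances to their neighbours were not compared with those of other genes. The nearest locus before the 5 prime end of gata4 was 136322 bases away and the nearest annotated gene there, mtmr9, was 191165 bases away, while fdft1, a gene of sterol synthesis on the same strand, began 4270 bases beyond its 3 prime end. At gata6, the ubiquitin ligase gene mib1 lay 107785 bases upstream and the next locus lay 101605 bases downstream, with c18orf45 as the next annotated gene at 222038 bases. The mitotic motor gene kif11 lay 18922 bases upstream of hhex, with an antisense transcript of its own 18920 bases away, and downstream of hhex there was no locus for 80435 bases. There the retinoic acid-degrading enzyme gene cyp26a1, at 267393 bases, was the next annotated gene. In the RefSeq assembly the neighbours are neil2 and blk for gata4, LOC101732092 and rbbp8 for gata6, and exoc6 and kif11 for hhex, so kif11 alone is a neighbour in both sources.

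The genes with the most similar counts of isoforms, splice variants and end exons are named below, and their functions were not compared. Likeness was the distance between log2(1 + count) over 7 counts, among 1649 genes for gata4 and gata6 and 1629 for hhex. For gata4 the nearest were ndufaf3, at 0.35, c15orf38, at 0.68, and st6galnac6, at 0.73. For gata6 they were LOC100125081, at 0.41, and btf3l4 and rpl21, both at 0.80. For hhex the third distance of 0.42 was shared by 7 genes, of which LOC100124839, LOC100145110 and c8g.2 come first by name.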

How the data were processed

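The authors deposited 1 table of transcripts and 1 set of gene models, both pooled over all 40 libraries. Bowtie, TopHat and Cufflinks made them, per the submitters' processing notes. The build, the annotation and the versions of these tools are not given in the sources. The deposited score headed FPKM lies between 0 and 1 with both confidence bounds 0 in all 167756 entries, and was used as a relative weight. The deposited coverage signal reaches 10.2 and is 0 for all 3522 annotated models. Starts in the gene models count from 0 and are printed counted from 1.

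Symbols, class codes and exon ends were read with Python 3.11.15. Isoforms are assembled transcripts with at least 2 exons on the strand of the gene; class x is antisense. First and last exons are separate where they do not overlap. Counts of separate end exons, skipped exons, splice sites and retained introns also use annotated models with at least 2 exons. They cover every scaffold and strand of a symbol. A skipped exon lies inside an intron of another transcript. Extra splice sites share a partner site and an exon body. Event calling was tested on simulated single loci of assembled transcripts, with no annotated model mixed in. The outcome is not given here. Wilson intervals cover counting error only.

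Named genes are the members, scaffold neighbours, GATA genes, the 4 list genes with the most isoforms, list genes with antisense RNA, and the 3 most alike. A result under this rule is not reported here. Members and lists were chosen with earlier results of these data known. RefSeq names for assembly UCB_Xtro_10.0 matched 87.9% of the 8329 symbols and all 3 members. Alternatives counted transcripts of weight 1 alone, annotated models or intron chains; first exons by exact start or by 2 transcripts; skipped exons by support, merging or shared flanks; antisense transcripts by exon number; and ranks over other gene sets.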

Additional observations from a re-analysis of the deposited data

How the results depend on the processing

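Of 39 alternatives 20 stayed within 1.5 times the count reported, or within the interval of the rank, and 19 did not. Some of the 20 could not move, so the tally is no measure of stability. Among these were subsets of the 0 antisense transcripts of gata4, and annotated models at gata4 and gata6, which have none. The intron chain of the 1 hhex isoform and its rank at the lowest possible count could not move either. With transcripts of weight 1 alone, isoforms fell to 2 at gata4, 4 at gata6 and 0 at hhex, first exons to 3 at gata6 and 0 at hhex, and antisense transcripts to 1 at gata6 and 0 at hhex. Counting the annotated model gave hhex 2 isoforms. By exact 5 prime ends there were 7 first exons at gata4, 13 at gata6 and 2 at hhex. With at least 2 transcripts for both inclusion and skipping, 0 skipped exons were left at each of the 3 genes. Merging overlapping exons left 1 at gata4, and an alternative chosen after seeing the data, which asked for shared flanking exons, left 0 at hhex. Among genes with about as many exons the share with fewer isoforms rose to 79.5% for gata4 and 93.9% for gata6, and with 1 annotated gene per locus it was 86.3% for gata6. No paired analysis was possible because no value belongs to a single library, and for the same reason no library could be left out. Library depth is unknown, so a missing isoform or antisense transcript is not shown to be absent from the embryo.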
